A study of Rattus norvegicus with 12 samples.

Results

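The angiopoietin and TIE receptor axis was followed here through 6 genes, chosen by symbol in the deposited count table: the receptors Tek and Tie1, the ligands Angpt1 and Angpt2, the phosphatase Ptprb and the transcription factor Foxo1. They are 6 of 32883 genes in the table, and all 6 were among the 15257 genes that passed a filter on low counts. They were chosen with their levels in these libraries known, so their levels and differences are given as a description, without a test.

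RNA came from whole lungs of WT rats, in 12 libraries, 4 in each of 3 groups. Control rats have no dosing stated. MCT-vehicle rats received monocrotaline, an alkaloid of Crotalaria plants that damages lung endothelium, with vehicle for 10 days. MCT-Fer-1 rats received monocrotaline and, for 10 days, ferrostatin-1, a small-molecule inhibitor of ferroptosis, the iron-dependent form of cell death that runs through lipid peroxidation. A time of 25 days is given for every sample, Control included. Against Control, monocrotaline and its accompanying dosing cannot be told apart. Whether the libraries are from separate rats is not stated, so a p-value here reflects only how far these samples spread, which may be technical.

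TIE2, the product of Tek, is a receptor tyrosine kinase of endothelial cells that is activated by angiopoietin-1, made by pericytes and other perivascular cells and by platelets, and that holds the quiescent endothelium together. Angiopoietin-2, released by endothelial cells, acts as a context-dependent antagonist, TIE1 is a co-receptor that shapes TIE2 signalling, and the phosphatase VE-PTP, the product of Ptprb, removes phosphate from TIE2. Active TIE2 signals through AKT to keep FOXO1, which drives Angpt2 among other targets, out of the nucleus.

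The Control libraries held 16640022 to 18229992 counts each, those of MCT-vehicle 13654695 to 24016262 and those of MCT-Fer-1 11601929 to 70627239. Levels are in CPM, counts relative to the size of the library, scaled by edgeR's TMM factors, so they compare 1 gene across libraries and not 1 gene with another. The mitochondrial share was 3.17% to 4.20% of counts. Heart-muscle markers summed to 429 CPM in MCT-vehicle 2 and 271 CPM in Control 4, against 17.4 to 82.2 CPM in the other libraries. The counts of members and related genes called against Control are also given without both libraries below. Cell type markers are counted, with and without both, in MCT-vehicle against Control only. In the test across all genes, 18.6% of genes passed an adjusted p of 0.05 in MCT-vehicle against Control, 10.8% in MCT-Fer-1 against Control and 0% in MCT-Fer-1 against MCT-vehicle. These comparisons share samples: each group enters a pair of them.

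Tek (ENSRNOG00000008587) had the largest difference of the 6. Its level was 523, 568, 580.2 and 543 CPM in Control libraries 1 to 4. In MCT-vehicle it was 153, 165, 125 and 129.6 CPM, and in MCT-Fer-1 it was 224, 153, 169 and 199.6 CPM. Every Control library lay above every monocrotaline library, while the MCT-vehicle and MCT-Fer-1 ranges overlapped. The group means were 554 ± 25.4 CPM for Control, 143 ± 19.1 CPM for MCT-vehicle and 186 ± 31.7 CPM for MCT-Fer-1 (SD, n = 4 each). MCT-vehicle therefore stood at 25.9% of Control, a log2 difference of -1.95 ± 0.12 (SE), and 0.511% of all genes tested had a lower value. MCT-Fer-1 stood at 33.6% of Control (-1.57 ± 0.12) and at 130% of MCT-vehicle (0.38 ± 0.12). In whole lung, fewer cells that express Tek and less Tek RNA per cell cannot be told apart.

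Tie1 (ENSRNOG00000020173), the co-receptor, had nearly the same level in all groups. Control libraries held 299.6, 265, 272 and 253 CPM. MCT-vehicle libraries held 286, 274, 241 and 276 CPM, and MCT-Fer-1 libraries held 329, 275, 326 and 269.7 CPM. All 3 ranges overlapped. The log2 difference was -0.02 ± 0.09 in MCT-vehicle against Control, 0.14 ± 0.09 in MCT-Fer-1 against Control and 0.16 ± 0.09 in MCT-Fer-1 against MCT-vehicle, so the order of the group means is within their spread.

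**Figure D1:**
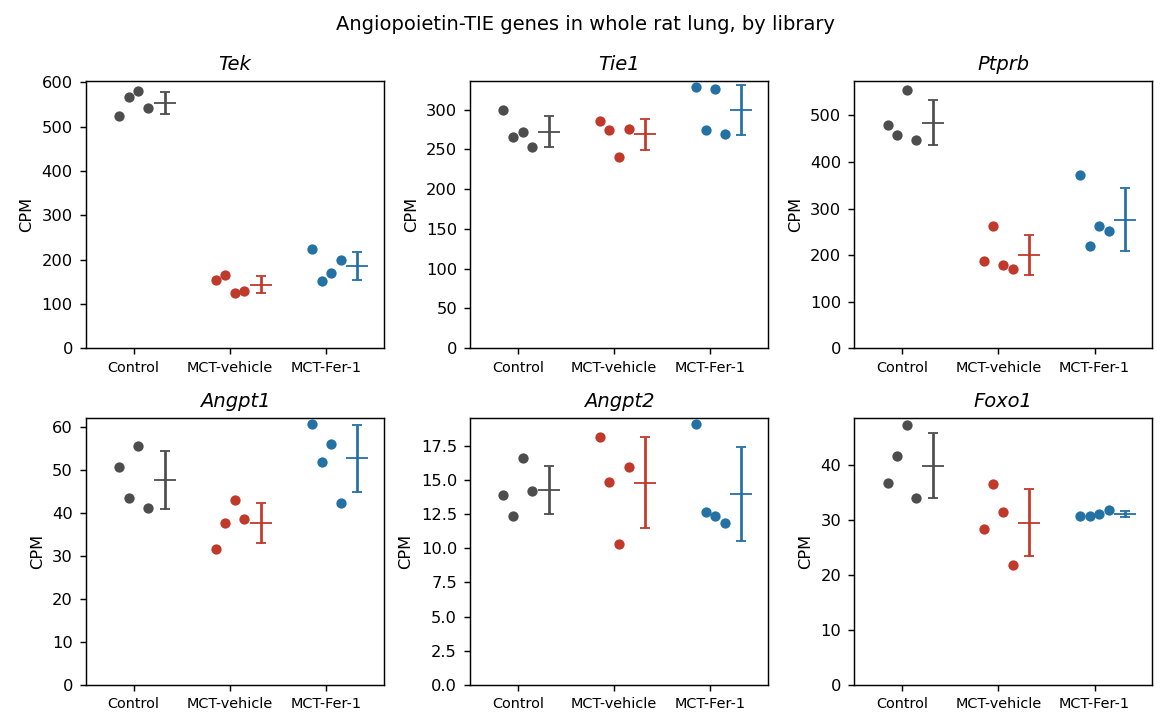
CPM (y axis, from 0) of each gene in the 12 libraries by group. Points are libraries 1 to 4 from left to right, and the bar beside them is the mean ± SD (n = 4). Tek and Ptprb lie lower in both monocrotaline groups than in every Control library, and the Tie1 and Angpt2 ranges overlap in all groups.

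Angpt1 (ENSRNOG00000005854), the agonist ligand, was lowest in MCT-vehicle. Control libraries held 50.6, 43.5, 55.7 and 41.1 CPM. MCT-vehicle libraries held 31.6, 37.6, 43.0 and 38.6 CPM, and MCT-Fer-1 libraries held 60.8, 51.8, 56.1 and 42.3 CPM. The means were 47.7 ± 6.66, 37.7 ± 4.70 and 52.7 ± 7.84 CPM (SD, n = 4 each). MCT-vehicle overlapped the other groups through 1 library, MCT-vehicle 3, which lay above Control 4 and MCT-Fer-1 4. The log2 difference was -0.34 ± 0.13 in MCT-vehicle against Control, 0.48 ± 0.13 in MCT-Fer-1 against MCT-vehicle and 0.14 ± 0.13 in MCT-Fer-1 against Control. Pericyte markers, from cells that make angiopoietin-1, summed to 383 to 532 CPM in Control, 406 to 546 CPM in MCT-vehicle and 416 to 501 CPM in MCT-Fer-1. Of 10 such markers, Pdgfrb and Trpc6 rose in MCT-vehicle against Control and Rgs5 fell (30%, against 18.6% of all genes). The Pdgfrb call was lost without Control 2, 3 or 4, MCT-vehicle 1, 2 or 4, or any MCT-Fer-1 library (highest adjusted p 0.135), and that of Trpc6 without Control 2 or 4 or MCT-vehicle 1, 2 or 4 (highest adjusted p 0.119). The part of these cells in the Angpt1 levels was not tested.

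Angpt2 (ENSRNOG00000016696), the context-dependent antagonist, was the member with the fewest counts, 138 to 847 per library. Control libraries held 13.9, 12.3, 16.6 and 14.2 CPM. MCT-vehicle libraries held 18.2, 14.9, 10.3 and 16.0 CPM, and MCT-Fer-1 libraries held 19.1, 12.7, 12.4 and 11.8 CPM. The ranges overlapped in all 3 groups, and the widest SDs, 3.32 CPM in MCT-vehicle and 3.44 CPM in MCT-Fer-1, exceeded every difference between group means. The log2 difference was 0.06 ± 0.19 in MCT-vehicle against Control, -0.10 ± 0.19 in MCT-Fer-1 against MCT-vehicle and -0.04 ± 0.19 in MCT-Fer-1 against Control.

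Ptprb (ENSRNOG00000055293), which encodes VE-PTP, had the next largest difference after Tek. Control libraries held 479, 457, 554 and 448 CPM. MCT-vehicle libraries held 188, 263, 178 and 170.5 CPM, and MCT-Fer-1 libraries held 373, 219.9, 262 and 251 CPM. Both monocrotaline groups lay wholly below Control and overlapped each other, with MCT-Fer-1 1 and MCT-vehicle 2 the highest of their groups. The means were 485 ± 48.1, 199.9 ± 42.8 and 276 ± 66.7 CPM (SD, n = 4 each). MCT-vehicle stood at 41.3% of Control (log2 difference -1.28 ± 0.17), MCT-Fer-1 at 57.0% of Control (-0.81 ± 0.17) and MCT-Fer-1 against MCT-vehicle at 0.47 ± 0.17. That last value was 0.29 without MCT-Fer-1 1 and 0.63 without MCT-vehicle 2.

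Foxo1 (ENSRNOG00000013397) was lower in both monocrotaline groups, by less than Tek or Ptprb. Control libraries held 36.6, 41.5, 47.2 and 33.9 CPM. MCT-vehicle libraries held 28.3, 36.4, 31.3 and 21.8 CPM, and MCT-Fer-1 libraries held 30.7, 30.7, 31.1 and 31.7 CPM. MCT-vehicle overlapped Control through MCT-vehicle 2 and Control 4, and MCT-Fer-1 lay just below the lowest Control library. The log2 difference was -0.43 ± 0.14 in MCT-vehicle against Control, -0.36 ± 0.14 in MCT-Fer-1 against Control and 0.08 ± 0.14 in MCT-Fer-1 against MCT-vehicle. The MCT-Fer-1 libraries differed from each other by an SD of 0.492 CPM, against 5.87 CPM in Control and 6.11 CPM in MCT-vehicle.

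**Figure D2:**
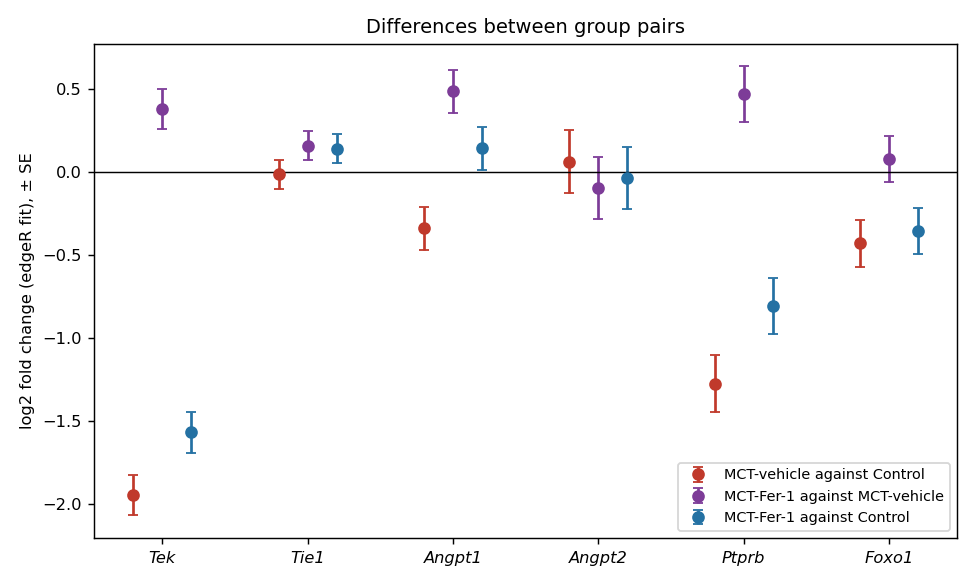
Log2 fold change from the edgeR fit (y axis) of the 6 genes (x axis) in the 3 comparisons; bars are the standard error of the fit. Tek stands at -1.95 and -1.57 against Control and at 0.38 against MCT-vehicle, while Tie1 and Angpt2 stay within 0.16 of 0 in all 3.

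In MCT-vehicle against Control, 3 of 6 members (Tek, Ptprb and Foxo1) were past the threshold, all lower, where 18.6% of all genes were past it and 8.28% were lower. Since the members were chosen on these values, nothing is read from that count or from those that follow. The groups did not overlap for 2 of 6 members, against 21.5% of all genes. Foxo1 was not past the threshold when any single library other than Control 4 or MCT-vehicle 2 was left out. Against Control, MCT-Fer-1 had 2 of 6 (Tek and Ptprb) past it, both lower, where 10.8% of all genes were past it and 4.12% lower, and 3 of 6 did not overlap, against 19.1%. Fitted on only the groups compared, 3 of 6 were past it there, Foxo1 included. In MCT-Fer-1 against MCT-vehicle, edgeR put 0 of 6 members past the threshold, with 3 of 6 below an unadjusted p of 0.05 (12% of all genes). DESeq2 put 1 of 6 past it, Angpt1, where it called 1.55% of all genes, and limma voom 0 of 6 and 0% of all genes. There 0 of 6 members had groups that did not overlap, against 6.10% of all genes. The median log2 difference of the 6 members was -0.39, 0.27 and -0.20 in MCT-vehicle against Control, MCT-Fer-1 against MCT-vehicle and MCT-Fer-1 against Control, where that of all genes was 0.02, -0.01 and 0.00. Without MCT-vehicle 2 and Control 4 the counts past the threshold were the same 3, 0 and 2.

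The relation between members within a library does not depend on how libraries are scaled. Tie1 minus Tek, as a difference of log2 CPM, was -0.80, -1.10, -1.09 and -1.10 in the Control libraries. It was 0.90, 0.73, 0.94 and 1.09 in MCT-vehicle and 0.55, 0.85, 0.95 and 0.43 in MCT-Fer-1. The Control values lay apart from both monocrotaline groups, which overlapped each other, and the group means moved by 1.94 and 1.72 against Control. Ptprb minus Tek stood 0.66 higher than Control in MCT-vehicle and, by the same measure, 0.75 higher in MCT-Fer-1, again without overlap: the Ptprb difference was smaller than that of Tek. Angpt2 minus Angpt1 was -1.73 ± 0.15 for Control, -1.36 ± 0.52 for MCT-vehicle and -1.92 ± 0.22 for MCT-Fer-1 (SD, n = 4 each), and all 3 ranges overlapped.

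The same genes were set against endothelial markers by subtracting the mean log2 CPM of 10 pan-endothelial genes. That mean was 8.05 ± 0.07 for Control, 7.88 ± 0.21 for MCT-vehicle and 7.97 ± 0.18 for MCT-Fer-1, with overlapping ranges. Tek minus this mean was 1.06 ± 0.12, -0.73 ± 0.24 and -0.44 ± 0.23 in the same order, and Ptprb minus it was 0.87 ± 0.11, -0.26 ± 0.39 and 0.11 ± 0.19. For both genes Control lay above every monocrotaline library. Tie1 minus the mean was 0.04 ± 0.06, 0.19 ± 0.12 and 0.25 ± 0.08 (SD, n = 4 each), with no overlap between MCT-Fer-1 and Control. Of the 10 markers, edgeR called Emcn higher in MCT-vehicle against Control and Cdh5 and Erg lower (30%, against 18.6% of all genes). The list median was -0.26. DESeq2, with 23.1% of all genes called, called 1 higher and 4 lower, with Cldn5 (-0.72, adjusted p 0.0088) and Esam (-0.34, adjusted p 0.0321) besides. Limma voom called 1 higher and 3 lower. The markers moved in both directions, so their mean is an uneven measure of endothelial content. Their summed levels were 3916 to 4508 CPM in Control, 2800 to 3953 CPM in MCT-vehicle and 3078 to 4457 CPM in MCT-Fer-1. Robo4, a further marker, was at 0 in some library and was not tested.

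**Figure D3:**
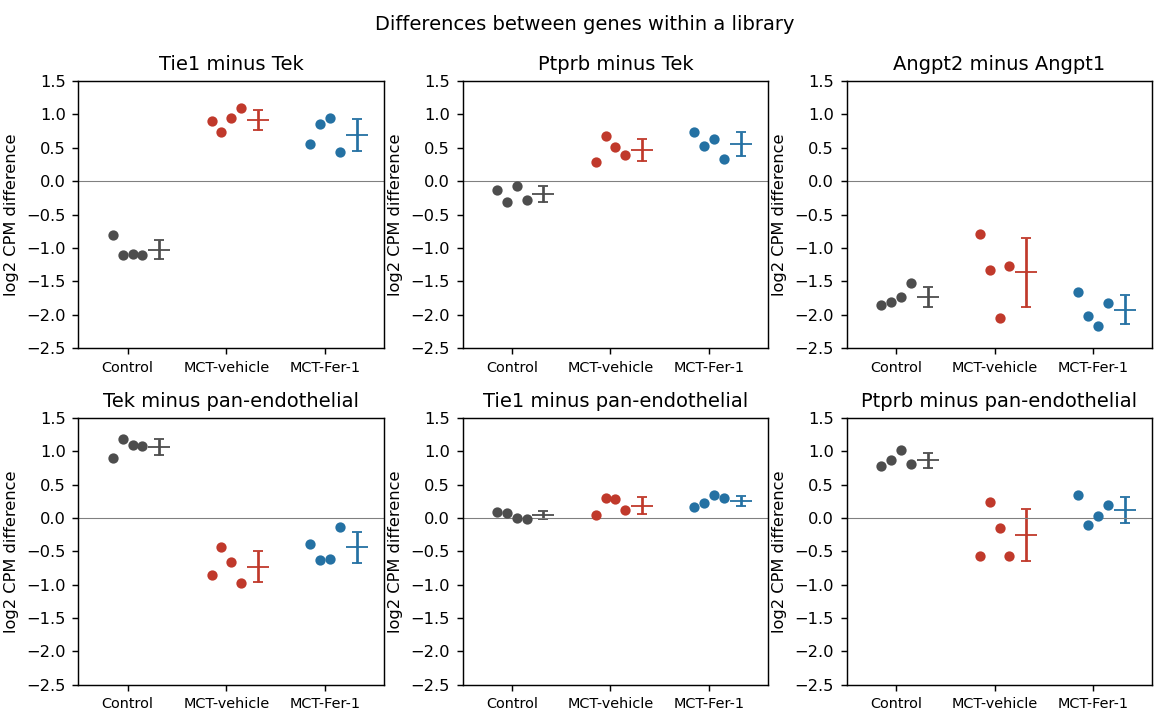
Difference of log2 CPM within a library (y axis) for 3 pairs of members and for 3 members against the mean of the pan-endothelial markers. Points are libraries 1 to 4 from left to right, and bars are mean ± SD (n = 4). Tie1 minus Tek is lower in every Control library than in every monocrotaline library. Only this shift between groups is read, since CPM does not compare 1 gene with another.

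Endothelial subtypes were counted by their markers, where edgeR called 18.6% of all genes in MCT-vehicle against Control. Of 8 general capillary markers, 4 fell and 1 rose in that comparison (62.5%). Gpihbp1, which anchors lipoprotein lipase in capillaries, fell by 3.92 on the log2 scale (adjusted p 0.000135), and Plvap, a component of fenestral diaphragms, fell by 0.94 (adjusted p 0.00081). The list summed to 2397 to 2952 CPM in Control, 1793 to 2351 CPM in MCT-vehicle and 2025 to 2558 CPM in MCT-Fer-1. MCT-vehicle 1 held the 2351 CPM, and the other MCT-vehicle libraries held 1793 to 1909 CPM. Of 8 arterial markers, 3 fell and none rose (37.5%), with Dll4, a Notch ligand, at -2.21 (adjusted p 5.04e-05). Their sums were 665 to 764 CPM in Control, 278 to 588 CPM in MCT-vehicle and 325 to 389 CPM in MCT-Fer-1. MCT-vehicle 1 held the 588 CPM, and the other MCT-vehicle libraries held 278 to 341 CPM. Of 8 aerocyte capillary markers 1 rose (Apln) and 0 fell (12.5%, below the share of all genes). Of 5 venous markers 1 rose and 2 fell (60%), and of 7 lymphatic markers 4 rose and 1 fell (71.4%). The Apln call was lost without any 1 Control library, MCT-vehicle 1 or 4, or MCT-Fer-1 4 (highest adjusted p 0.0883). Without MCT-vehicle 2 and Control 4, 2 general capillary markers fell and 0 rose, 4 arterial markers fell, the pan-endothelial calls were again 1 higher and 2 lower, 0 aerocyte and 0 venous markers were called, and 3 lymphatic markers rose and 1 fell. The capillary calls lost there were Aplnr and Kit, which fell (adjusted p 0.06 and 0.0529 without both), and Btnl9, which rose and was lost in 8 of 21 alternatives. The venous calls were Vcam1, which rose and was lost in that alternative alone (adjusted p 0.0557), and Slc6a2 and Ephb4, which fell and were lost in 8 and 10 of 21. Reln, a lymphatic marker that rose, was lost in 5 of 21 (highest adjusted p 0.0879). The part of these subtypes in the Tek and Ptprb levels was not tested.

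Other cell types that could carry these transcripts were also counted. Of 7 markers of macrophages, a cell type in which a TIE2-expressing subset is known, 6 rose in MCT-vehicle against Control (85.7%, against 18.6% of all genes). C1qa was among them, with a rise of 2.04 on the log2 scale (adjusted p 8.6e-06). The summed level of the 7 markers, which do not single out that subset, was 454 to 514 CPM in Control. It was 811 to 1076 CPM in MCT-vehicle and 775 to 832 CPM in MCT-Fer-1. Of 5 tested platelet markers 1 rose (Pf4, 20%), of 8 smooth muscle markers 1 rose (Smtn, 12.5%) and of 8 fibroblast markers 2 rose (Col1a1 and Lum, 25%). In each 0 fell, and these shares are near or below the 18.6% of all genes. The Smtn call was lost without Control 2, 3 or 4, MCT-vehicle 1, 2 or 4, or any MCT-Fer-1 library (highest adjusted p 0.135), and the Lum call without Control 2, 3 or 4 (highest adjusted p 0.0667). Lung epithelium had 0 of 9 markers past the threshold and heart muscle 0 of 8 by edgeR, with 3 and 0 at an unadjusted p below 0.05 (32.1% of all genes). DESeq2, with 23.1% of all genes called, called 2 and 0 of them, and limma voom 1 and 0. Without MCT-vehicle 2 and Control 4, 5 of 7 macrophage markers rose (Mrc1 was lost, adjusted p 0.052), 0 smooth muscle markers were called, Rgs5 was the 1 pericyte marker called, and the fibroblast marker Dcn (lower) and the heart marker Tnnt2 (higher) were called besides. Their part in the members' levels was not tested.

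The genes around the receptors were taken from 6 lists of 86 genes in all, of which 82 were tested. In MCT-vehicle against Control, 10 rose and 18 fell, which is 34.1% of them, where 18.6% of all genes were called. Their median log2 change was -0.06, against 0.02 over all genes. Against Control, MCT-Fer-1 had 5 that rose and 10 that fell (18.3%, against 10.8%). In MCT-Fer-1 against MCT-vehicle edgeR called 0 of the 82, with 17 at an unadjusted p below 0.05 (20.7% of them, where 12% of all genes were), DESeq2 called 1, Tnip2 (1.55% of all genes called), and limma voom called 0. Of the 28 calls in MCT-vehicle against Control, 17 held in every alternative, and 17 remained without MCT-vehicle 2 and Control 4. By list, the calls without both libraries were 2 secreted, 3 membrane and shedding, 3 adaptor, 3 FOXO, 5 transcription factor and 1 phosphatase gene. Of 15 calls in MCT-Fer-1 against Control, 10 held in every alternative, and 12 passed without those libraries.

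The secreted list holds TIE ligands and partners and angiopoietin-like genes, whose products are not established ligands of TIE1 or TIE2. Of 6 tested, 4 rose in MCT-vehicle against Control and 0 fell (66.7%, against 18.6% of all genes), with a list median of 0.88. Svep1, a large matrix protein that binds TIE1, had 57.7 ± 6.98 CPM for Control, 111 ± 15.7 CPM for MCT-vehicle and 107 ± 16.3 CPM for MCT-Fer-1 (SD, n = 4 each). It rose by 0.95 ± 0.12 (SE) in MCT-vehicle (adjusted p 0.000379) and by 0.89 ± 0.12 in MCT-Fer-1 (adjusted p 0.000744) against Control. The angiopoietin-like Angptl1 rose by 1.13 (adjusted p 0.012). Angptl4, an inhibitor of lipoprotein lipase, rose by 1.08 (adjusted p 0.0396) and Angptl2 by 0.33 (adjusted p 0.0422), and these 2 calls were the unsteady ones. The Angptl4 call was lost without Control 1, 2 or 4, MCT-vehicle 1, 3 or 4, or MCT-Fer-1 1, and its highest adjusted p over the alternatives was 0.1. The Angptl2 call was lost without Control 2, 3 or 4, MCT-vehicle 2 or 4, or MCT-Fer-1 2, 3 or 4, with a highest adjusted p of 0.157. Against Control, MCT-Fer-1 had 1 of 6 that rose (16.7%, against 10.8% of all genes).

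Among 7 partners at the membrane and shedding enzymes, 2 rose and 1 fell in MCT-vehicle against Control (42.9%, against 18.6% of all genes). Mmp14, a membrane-bound metalloproteinase, had 71.8 ± 15.4, 147 ± 10.6 and 114 ± 8.32 CPM in the order Control, MCT-vehicle, MCT-Fer-1 (SD, n = 4 each). It rose by 1.04 in MCT-vehicle (adjusted p 0.000271) and by 0.67 in MCT-Fer-1 (adjusted p 0.00594). Adam17, a sheddase of many membrane proteins, rose by 0.46 in MCT-vehicle (adjusted p 0.00665). Cdh5, VE-cadherin, which VE-PTP also acts on, fell by 0.54 (adjusted p 0.00497) from 881 ± 65.9 CPM in Control to 607 ± 77.0 CPM, and stood at 692 ± 87.6 CPM in MCT-Fer-1. In MCT-Fer-1 against Control, edgeR called 1 of 7, Mmp14 (14.3%, against 10.8% of all genes). DESeq2 and limma voom, with 15.2% and 15.5% of all genes called, called 4 of 7 each, 2 higher and 2 lower. The lower ones were Cdh5 (adjusted p 0.0166 and 0.0315) and Itga5, an integrin subunit (0.0303 and 0.0382).

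Of 23 TIE2 adaptors and effectors, 4 rose and 1 fell in MCT-vehicle against Control, which is 21.7% of them and near the 18.6% of all genes, and the list median was 0.01. Shc1, an adaptor of receptor tyrosine kinases, rose by 0.66 (adjusted p 0.000293) in MCT-vehicle and by 0.64 (adjusted p 0.000452) in MCT-Fer-1. Grb7, an adaptor that binds phosphorylated TIE2, fell by 1.12 (adjusted p 0.000418) and by 0.78 (adjusted p 0.00519). The kinase gene Pak1 rose by 0.47 (adjusted p 0.0156) in MCT-vehicle and by 0.44 (adjusted p 0.0307) in MCT-Fer-1. The second Pak1 call was lost without any 1 Control library, or MCT-Fer-1 2 or 3 (highest adjusted p 0.0829). Tnip2, an inhibitor of NF-kB signalling that binds TIE2, rose by 0.34 in MCT-vehicle (adjusted p 0.0342) and was lost without Control 2, 3 or 4 or MCT-vehicle 1, 3 or 4 (highest adjusted p 0.0979). In MCT-Fer-1 against MCT-vehicle it stood at -0.39 ± 0.10 (SE), not past the threshold.

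Of 20 FOXO paralogs and FOXO1 targets, edgeR called 5 lower and 0 higher in MCT-vehicle against Control (25%, against 18.6% of all genes), and the list median was -0.33. Cdkn1b, the cell cycle inhibitor p27, fell by 0.71 (adjusted p 0.00056), Txnip, an inhibitor of thioredoxin, by 0.85 (adjusted p 0.001), Foxo4 by 0.56 (adjusted p 0.00403) and Mxi1, a MYC antagonist, by 0.47 (adjusted p 0.00661). Txnip levels were 1066 ± 181, 590.0 ± 97.7 and 622 ± 45.7 CPM in the order Control, MCT-vehicle, MCT-Fer-1 (SD, n = 4 each). In MCT-Fer-1 against Control 3 fell by edgeR (15%, against 10.8% of all genes). They were Txnip by 0.78 (adjusted p 0.00278), Foxo6 by 1.25 (adjusted p 0.0178) and Cdkn1b by 0.36 (adjusted p 0.0375). The Cdkn1b call there was lost without Control 2, 3 or 4 or MCT-Fer-1 1, 2 or 4 (highest adjusted p 0.113), and that of Foxo6 without Control 2 or MCT-Fer-1 2 or 3 (highest adjusted p 0.0889). Sesn3, a sestrin, was called higher there by DESeq2 (0.40, adjusted p 0.0434), by limma voom (0.42, adjusted p 0.0266) and by edgeR on only the groups compared (0.41, adjusted p 0.0195).

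The endothelial transcription factors had the most calls of the 6 lists by number, though the secreted list had a larger share (66.7%). Of 16, 9 fell and 0 rose in MCT-vehicle against Control (56.2%, against 18.6% of all genes), with a list median of -0.39. In MCT-Fer-1 against Control edgeR called 6 lower and 0 higher (37.5%, against 10.8% of all genes). There DESeq2 called 8 lower and 1 higher and limma voom 7 lower and 1 higher, the higher one being Mef2c, a MADS-box factor (0.51, adjusted p 0.0207, and 0.53, adjusted p 0.0251). Epas1, HIF-2-alpha, had 3821 ± 191, 2105 ± 207 and 2325 ± 330 CPM in the order Control, MCT-vehicle, MCT-Fer-1 (SD, n = 4 each), and fell by 0.86 (adjusted p 0.000244) and by 0.72 (adjusted p 0.00107). Sox7, a factor of the SOXF family, fell by 0.87 (adjusted p 0.00318) and by 0.92 (adjusted p 0.00341). Gata2, a zinc finger factor active in endothelium, fell by 1.11 (adjusted p 0.00381) and by 1.05 (adjusted p 0.00807). Tal1, a partner of GATA factors, fell by 0.65 (adjusted p 0.00719) in MCT-vehicle. Its fall of 0.58 in MCT-Fer-1 (adjusted p 0.021) was lost without Control 3 or MCT-Fer-1 2 or 4 (highest adjusted p 0.0569). Sox18, also of the SOXF family, fell by 0.65 in MCT-Fer-1 (adjusted p 0.00435).

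Erg, Ets1, Elf1 and Elf2, among the factors that fell in MCT-vehicle against Control, are named after their values were seen, and no list of ETS factors was tested as such. They belong to the ETS family, which binds a GGAA core and is known to act on endothelial promoters, Tek among them. Erg fell by 0.38 (adjusted p 0.0109), Ets1 by 0.42 (adjusted p 0.0328), Elf1 by 0.26 (adjusted p 0.0243) and Elf2 by 0.22 (adjusted p 0.0186). Fli1, of the same family and list, stood at -0.13 and did not pass (adjusted p 0.607). The Ets1 call was lost without Control 2, 3 or 4 or MCT-vehicle 2, 3 or 4, the Elf1 call without Control 3 or 4 or MCT-vehicle 1 or 4, and the Elf2 call without MCT-vehicle 2. Their highest adjusted p over the alternatives was 0.102, 0.0913 and 0.0945.

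Promoter sequences in RefSeq (GRCr8) were matched for 2 of 6 members, Tie1 and Foxo1, and are shown because factors that bind ETS and FOXO letters are among the genes above. The windows hold the bases upstream of the outermost annotated start, on the gene's strand, with GGAA on either strand (written GGAA or TTCC) in capitals. That of Tie1 is chr5:137305048-137305231 on the minus strand, and that of Foxo1 is chr2:138462724-138462973 on the plus strand.
Tie1: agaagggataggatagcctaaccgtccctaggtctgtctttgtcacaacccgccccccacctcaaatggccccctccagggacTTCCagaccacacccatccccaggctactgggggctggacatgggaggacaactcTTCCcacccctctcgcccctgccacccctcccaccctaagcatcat
Foxo1: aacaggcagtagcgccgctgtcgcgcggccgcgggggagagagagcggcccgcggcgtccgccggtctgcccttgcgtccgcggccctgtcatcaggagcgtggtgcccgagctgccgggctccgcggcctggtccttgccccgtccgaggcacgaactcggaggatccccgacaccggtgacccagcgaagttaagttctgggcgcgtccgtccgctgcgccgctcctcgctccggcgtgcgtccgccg
The 184 bases of Tie1 hold 2 GGAA matches, where 87.1% of 33469 promoters hold at least 1 in their first 184 bases, and 62.2% hold at least as many. The windows of all promoters were not ended at the annotated start, so they can hold transcribed bases. The 250 bases of Foxo1, with a GC content of 74.4%, hold 0, where 93.2% of promoters hold at least 1. The FOXO letters GTAAACA, searched on both strands, are in neither window, and in 2.51% and 3.21% of promoters over windows of the same lengths. These matches describe letters and not sites of binding.

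Among 10 tested receptor tyrosine phosphatases, the family of Ptprb, 2 fell in MCT-vehicle against Control and 0 rose. That is 20% of them, near the 18.6% of all genes, and the list median was -0.01. Ptprm, which mediates contact between cells, fell by 0.50 (adjusted p 0.0142), from 268 ± 24.8 CPM in Control to 189 ± 14.3 CPM in MCT-vehicle (SD, n = 4 each). Ptprk fell by 0.24 (adjusted p 0.0422), a call lost without Control 1, 3 or 4, MCT-vehicle 2, 3 or 4, or MCT-Fer-1 2 (highest adjusted p 0.117). EdgeR called 0 of 10 in MCT-Fer-1 against Control, with 3 at an unadjusted p below 0.05 (25.2% of all genes), and DESeq2 and limma voom called 0 each.

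**Figure D4:**
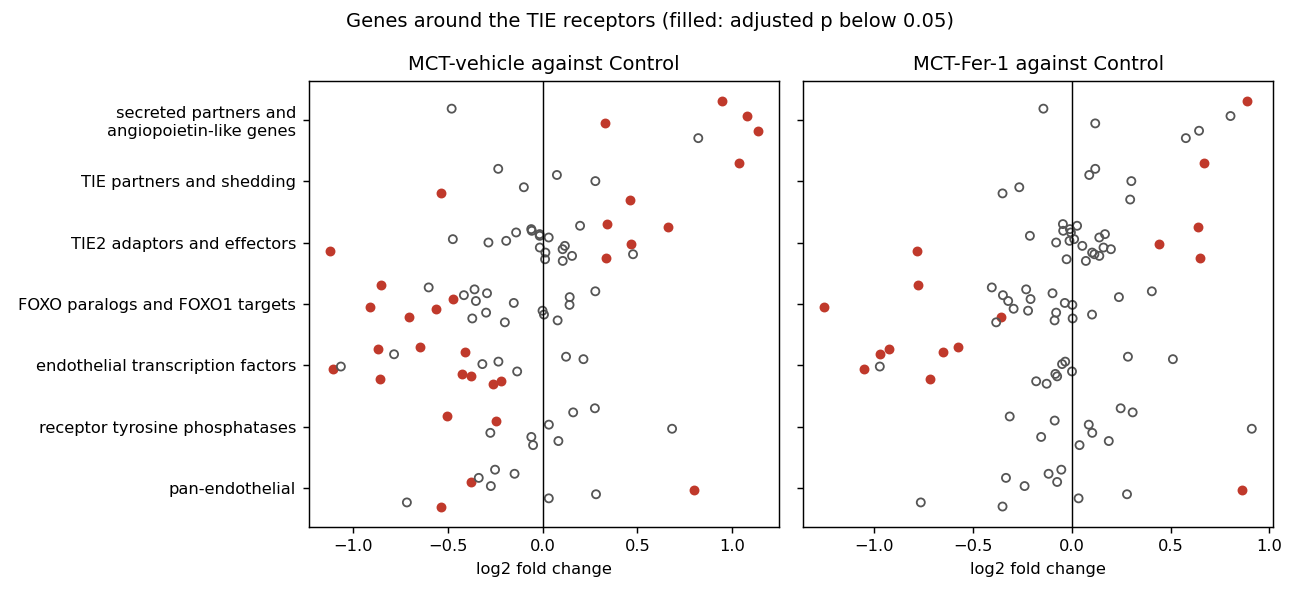
Log2 fold change (x axis) of each tested gene of the 6 lists around the TIE receptors and of the pan-endothelial markers (rows), in MCT-vehicle against Control (left) and MCT-Fer-1 against Control (right), which share the Control libraries. Filled points have an adjusted p below 0.05 in the edgeR test. By that test no filled point of the endothelial transcription factors or of the FOXO list lies above 0.

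Between MCT-Fer-1 and MCT-vehicle the genes with the smallest p of each list did not pass the threshold. Cdkn1b stood at 0.35 ± 0.10, Erg at 0.30 ± 0.09, Mmp14 at -0.37 ± 0.13, Ptprg, a phosphatase, at 0.38 ± 0.10 and Angptl2 at -0.21 ± 0.10 (SE, edgeR fit). Their adjusted p ran from 0.206 for Tnip2 to 0.439 for Angptl2.

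Tek and Ptprb followed each other across the 12 libraries. Pearson's r of their log2 CPM was 0.949, and 0.818 about the group means, which leaves out the differences between groups. Tie1 and Tek had an r of -0.07, and 0.33 about the group means. Over all genes tested with a symbol, the 5 most like Tek were Atp2a3, a calcium pump (r = 0.982), Olfml2a (0.980), Fam117b (0.979), Sema3g, a semaphorin (0.979), and Clec14a, an endothelial lectin receptor (0.979). Clec14a had a mean of 673 CPM in Control, 189.9 CPM in MCT-vehicle and 269.8 CPM in MCT-Fer-1. About the group means the 5 most like Tek were Usp6nl (0.945), Klhl23 (0.930), Shbg (0.917), Shank3 (0.901) and Fam107a (0.890), none of them among the first 5. Shbg had means of only 0.97, 0.99 and 0.93 CPM in the order Control, MCT-vehicle, MCT-Fer-1, so its r rests on few counts. Ptprb was most like Ace, angiotensin-converting enzyme (0.987), Dock9 (0.964) and Flt1, a VEGF receptor (0.960). Tie1 was most like Maml2 (0.869), Angpt1 like Fam160b1 (0.914), Angpt2 like Ecscr, an endothelial surface protein (0.911), and Foxo1 like Hipk1 (0.909). These are descriptions over 12 libraries that share 3 groups, and they were picked as the highest of all genes.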

How the data were processed

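Whole-lung RNA was sequenced in 12 libraries. Raw read counts of 32883 genes, named so per the file headers, make up the deposited table, with 3 columns of signal that hold the authors' group means and were not used. Not given in the sources used here are the aligner, counter, build and strand setting. Reads of overlapping or antisense genes therefore cannot be told apart.

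Genes were kept by edgeR's filterByExpr (15257 genes, 99.9% of counts), scaled by TMM and fitted over all 12 libraries in 3 groups with the robust quasi-likelihood method leaving 9 residual degrees of freedom. A gene is called where its p, adjusted by Benjamini-Hochberg over all genes tested, was below 0.05. Log2 CPM used a prior count of 2. Groups came from the sample titles. A count of 3 corresponds to 0.042 to 0.259 CPM, counting error only. Chi-square per degree of freedom was at least 10.7 between libraries of a group, so none were merged. Tools were edgeR 4.0.16, DESeq2 1.42.0 and limma 3.58.1 under R 4.3.3. The gene test was also run on counts simulated from its own fit. That run cannot show how the test behaves where libraries depart from the fitted model.

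The 6 members, the 6 lists of related genes and the 13 lists of cell type markers were chosen with earlier results of these data known. All members were named; from each related list, up to 4 called genes with the smallest p per comparison, or 2 if none was called; from marker lists, up to 3. Not every gene so chosen is reported here. Likeness took the highest Pearson r. Alternatives were other size factors, no filter, DESeq2, limma voom, fits of only the groups compared, a replicate block, thinning to the smallest total, leaving out each library, and leaving out MCT-vehicle 2 with Control 4; for ratios, a prior count of 0.5 and the median of the markers. Of the list symbols, 2 had no match and 1 was matched through another name. Promoter windows came from RefSeq.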

Additional observations from a re-analysis of the deposited data

Results flagged for a closer look

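In 39 sets of 4 libraries (levels of the members, and their ratios, in each group), 2 held a library apart from its group, where the gap to the nearest library, as a share of the group's range, was above Dixon's 95% critical value. Chance alone gives about 1 in 20. Angpt2 was at 19.13 CPM in MCT-Fer-1 1, the shallowest library, against 11.8 to 12.7 CPM in the other MCT-Fer-1 libraries, a gap of 0.886 of the range. Tie1 minus Tek was -0.8044 on the log2 scale in Control 1, against -1.09 to -1.10 in the other Control libraries, a gap of 0.968 of the range.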

How the results depend on the processing

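In every alternative run, the Tek and Ptprb differences against Control kept their direction, which is a description, since the genes were chosen on these values: Tek ran from -2.04 to -1.89 and Ptprb from -1.48 to -1.21 in MCT-vehicle, and from -1.67 to -1.49 and -0.99 to -0.72 in MCT-Fer-1. Foxo1 in MCT-vehicle was past it in 7 of the 9 alternatives other than leaving out 1 library and in 2 of 12 that left out 1 library. Values near 0 changed sign when 1 library was left out: Tie1 in MCT-vehicle against Control (0.03 without MCT-vehicle 3), Angpt2 in all 3 comparisons (-0.05 and 0.01 without MCT-vehicle 1, 0.04 without Control 3) and Foxo1 in MCT-Fer-1 against MCT-vehicle (-0.04 without MCT-vehicle 4).

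Genes called in MCT-vehicle against Control were 2843, and 1675 without MCT-vehicle 2 and Control 4, where the related lists had 17 calls in place of 28. Leaving out 1 library gave 2021 to 2860 genes and 19 to 28 list calls. In MCT-Fer-1 against MCT-vehicle edgeR called 0 genes, 1 when only the groups compared were fitted, and DESeq2 called 237 (100 higher, 137 lower), with 1 list gene. Leaving out 1 library gave 0 to 41 genes (41 without MCT-vehicle 3, 3 without Control 2, 2 without MCT-Fer-1 4) and 0 list calls. In MCT-Fer-1 against Control 1646 genes were called, 978 without MCT-vehicle 2 and Control 4, and 977 to 1714 without 1 library (977 without MCT-Fer-1 2, 978 without Control 4, 995 without MCT-Fer-1 3). Lower calls there were 629, 1004 by DESeq2, 1033 by limma voom, 330 without MCT-vehicle 2 and Control 4, and as few as 313 without 1 library (MCT-Fer-1 2), where higher calls were 1017, 648 and, without Control 4, 640. Fewer libraries enter the fits that leave some out, and the cause of the other shifts was not tested.

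Replicate numbers did not pair the libraries: same-numbered libraries correlated at -0.0633 to 0.102 over 12 pairs, and the own number was best in 4 of 12. With the replicate block 2812, 0 and 1676 genes were called, and the Tek difference in MCT-vehicle against Control was -1.96. Among the genes of the lists, alternatives moved 242 values out of a call and 149 into one. They reversed the sign of no list gene called by edgeR over all 12 libraries, and sign changes of uncalled genes were not counted.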
